A study of Mus musculus with 12 samples.

Results

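Genes of the blood vessel lining and of the blood-brain barrier were followed in mouse brain gliomas that had lost or kept Tlx, an orphan nuclear receptor that maintains neural stem cells. A total of 37 genes was chosen by name: 15 endothelial surface, secreted and signalling genes, 7 transcription factors, 8 barrier genes, 3 further barrier-associated genes and 4 tumour-vessel genes. The array carries 59 probes for them. Of the 37 genes, 31 were tested among 14155 genes in all, of which 6 were barrier and 3 tumour-vessel genes. The rule names the genes and uses no measured value, but the list was drawn up with earlier results of these data known.

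Endothelial cells line every vessel, and in the brain they are sealed by tight junctions of claudins, occludin and the scaffold protein ZO-1. They carry transporters that admit selected nutrients and hormones or return drugs to the blood, and they take up little by vesicles. In gliomas this barrier is known to loosen in places. Vessels there can express Plvap, a protein of endothelial pores and vesicles that mature brain capillaries lack, and the sprouting-cell genes Esm1 and Apln.

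The series holds 12 bead arrays, 1 per animal. In 6 animals Tlx was deleted (CRE+, aged 48 to 79 days), and 6 littermates kept it (CRE-, aged 38 to 51 days). All were C57BL/6 mice with both Tlx alleles floxed (Tlx f/f) and a Nestin-driven Tva transgene (N-Tva), and the knockout animals also carried the tamoxifen-activated Nestin-CreERT2. The design text gives tamoxifen by intraperitoneal injection 2.5 weeks after tumours were started, and tumours were collected when neurological symptoms were severe. The groups therefore also differ in Cre carriage and in age. The Cre is driven by Nestin, and the labels do not say in which cells of the tumour it acted. Sample labels number the CreERT allele differently in every animal, whereas the design text names CreERT2 throughout. Replicate numbers were given here in order of deposition and pair no animals.

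The tissue was whole glioma with no sorting of vessel cells. Fewer endothelial cells and less RNA per endothelial cell therefore cannot be told apart. Values are log2 intensities after background correction and quantile normalization, on which an offset of 16 draws folds of dim probes towards 1. Between 50.8% and 54.8% of probes were detected per array (detection p below 0.05), and the median signal was 134.5 to 161 intensity units. The glioma markers Olig2 and Nes were detected on 12 of 12 arrays. Nr2e1, the gene of Tlx, averaged 5.55 ± 0.54 in knockout and 6.14 ± 0.44 in intact ones (n = 6 and 6, ± SD), with a difference of -0.58 that did not pass the threshold (limma adjusted p = 0.405). The sources do not place this probe relative to the deleted part, so it does not check the labels.

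In the deposited table, 5 knockout arrays and 1 intact array stand in the first 6 columns, and 1 knockout array and 5 intact arrays in the last 6. The animal numbers in the labels form 4 series, and series A is the one that holds both groups, with 3 knockout (replicates 2, 5 and 6) and 2 intact animals (replicates 1 and 2). Neither the column order nor the number series is explained in the labels. Both are used below as blocks, so that a difference can be read within columns or within series A.

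None of the 31 genes passed the adjusted threshold of 0.05. The background in the same comparison was 2 of 14155 genes, or 0.0141%. Lyzl4 was the lower one in knockout tumours (limma adjusted p = 4.34e-06), detected on 0 knockout and 6 intact arrays. Adgrf5 was the higher one (limma adjusted p = 0.0252), detected on 6 knockout and 2 intact arrays. Neither is in a gene list used here. At an unadjusted limma p below 0.05, 5 of 31 (16.1%) were higher in knockout tumours, against 6.22% of all genes, and 2 of 31 (6.45%) were lower, against 5.72%. The higher ones were Eng, Slco1a4, Tie1, Esm1 and Emcn, and the lower ones were Slco1c1 and Ocln. The 31 genes are not independent of each other: all 14 measured surface genes lay above their means in knockout replicate 1. These shares are therefore descriptive. The median difference over the 31 genes was 0.17 log2 units, against -0.0026 over all genes tested, and 20 of 31 (64.5%) lay above 0, against 49.6%. This median turned to -0.11 with the number series as a block and was 0.39 with the column order as a block. The count of 7 genes past an unadjusted p of 0.05 became 4 with the number series as a block, not all of them the same genes. In that fit the higher ones were at 0.28 (SE 0.30) for Eng, 0.32 (SE 0.32) for Slco1a4 and 0.16 (SE 0.33) for Tie1. Emcn was at 0.07 (SE 0.33) and Esm1 at -0.50 (SE 0.61). Of the lower ones, Slco1c1 was at -0.50 (SE 0.21) and Ocln at -0.29 (SE 0.30). The count was also 4 without knockout replicate 1 and without intact replicate 6. Of the 31, 27 were detected on all 12 arrays and none on fewer than 10, so no gene entered the test through 1 group alone.

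**Figure D1:**
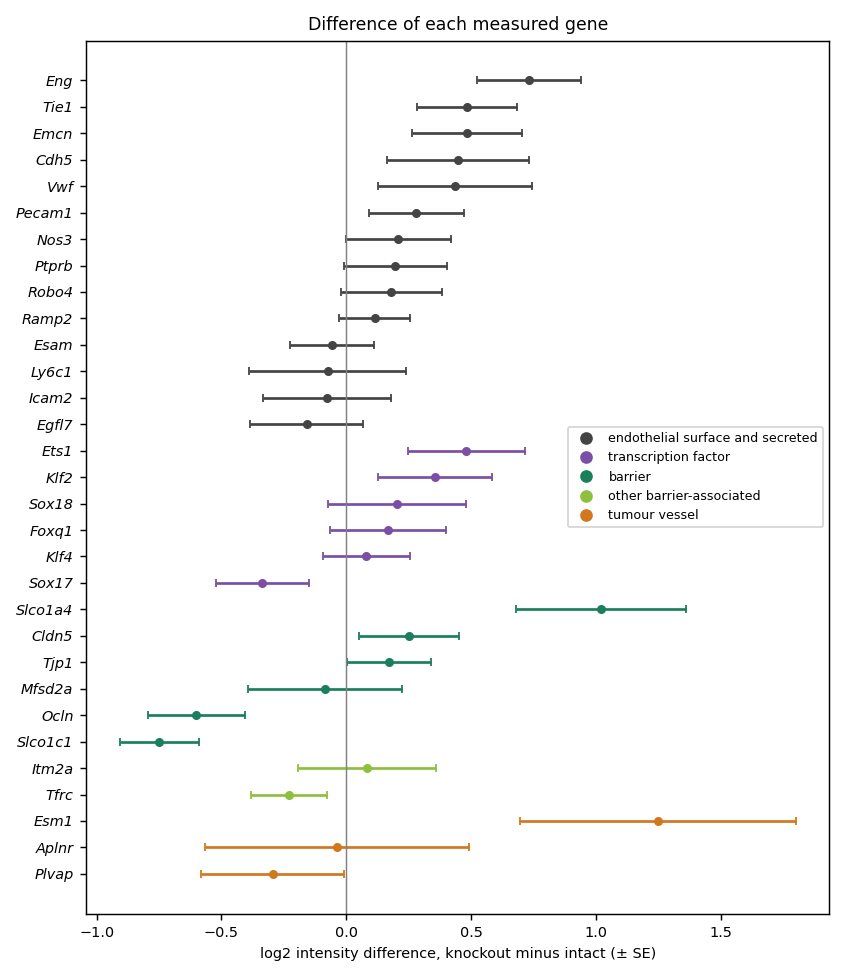
Difference in log2 intensity, knockout minus intact, of the 31 measured genes (points, with limma standard errors as bars), coloured by gene group. Endothelial surface genes run from -0.16 for Egfl7 to 0.73 for Eng, and the barrier genes span -0.75 for Slco1c1 to 1.02 for Slco1a4.

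The 6 measured barrier genes had no common direction. Their median difference was 0.04, with 3 above and 3 below 0, and their list mean (each gene is centred on its own average of 12 arrays, and the centred values are averaged over genes) was 0.00 ± 0.13 in knockout and -0.00 ± 0.18 in intact ones (n = 6 and 6, ± SD). Behind this lie single genes with differences of opposite sign. The transporters Slco1c1 and Slco1a4 were the ones farthest apart.

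Slco1c1 encodes a transporter that brings thyroid hormone across the brain endothelium and is also known in choroid plexus and astrocytes. Its probe (ILMN_1242173) read 8.41, 8.81, 8.63, 8.32, 8.44 and 8.81 in knockout replicates 1 to 6, against 9.27, 9.10, 8.89, 9.45, 9.55 and 9.65 in intact replicates 1 to 6. Every knockout tumour lay below every intact tumour. Among all genes tested 0.219% were separated in this direction. The means were 8.57 ± 0.21 in knockout and 9.32 ± 0.29 in intact ones (n = 6 and 6, ± SD), 0.595-fold on the linear scale, with a difference of -0.75 (SE 0.16) that did not pass over all genes (limma adjusted p = 0.185).

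Since the groups do not overlap, every subset that holds both must give a difference below 0, and its sign there adds no support. In each column subset 1 group has a single array. The difference was -0.29 within the first 6 columns, -0.99 within the last 6 and -0.50 within series A. With the column order as a block it was -0.64 (SE 0.22, adjusted p = 0.541), with the number series -0.50 (SE 0.21, adjusted p = 0.999) and with age as a covariate -0.76 (SE 0.25, adjusted p = 0.794). Over 24 alternative settings it ran from -0.83 to -0.50, always below 0, with adjusted p from 0.0656 to 0.999.

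Markers of the other cell types known to express Slco1c1 were measured beside it. Of 9 astrocyte markers, 9 were measured and 8 had a difference below 0 (median -0.73), and their summed normalized intensity was 14672 to 41890 units in knockout and 27805 to 48954 in intact tumours. Of 9 choroid plexus markers, 8 were measured, 4 above and 4 below 0 (median 0.07), with sums of 438 to 20805 units in knockout and 689 to 22533 in intact tumours. Ttr, the thyroid hormone carrier of choroid plexus, read 6.10 to 14.2 in knockout and 8.37 to 14.3 in intact tumours. Every measured marker of both lists was detected in both groups, and Enpp2 of choroid plexus had no probe. The part of these cells in the Slco1c1 difference was not tested.

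Slco1a4, a transporter of bile acids, steroid conjugates and drugs at the brain endothelium, differed the other way. It read 7.12, 6.98, 6.26, 5.93, 6.76 and 7.17 in knockout replicates 1 to 6, against 6.67, 6.63, 5.65, 5.22, 5.10 and 4.83 in intact replicates 1 to 6. The groups overlapped: intact replicates 1 and 2, both of series A, stood with the knockout tumours, and the other 4 intact tumours lay below every knockout tumour. The means were 6.70 ± 0.50 in knockout and 5.68 ± 0.79 in intact ones (n = 6 and 6, ± SD), a difference of 1.02 (SE 0.34, adjusted p = 0.272) or 2.03-fold.

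The size of this difference depended on which animals were set side by side. It was 0.97 within the first 6 columns and 1.43 within the last 6, and 0.32 (SE 0.32, adjusted p = 0.999) within series A. Age as a covariate gave 1.496 (SE 0.52, adjusted p = 0.794). Without background correction it was 0.37. The sign was the same in all 24 alternatives. The probe (ILMN_1258323) was detected on 6 knockout and 5 intact arrays, and a second probe was detected on none.

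Both transporter genes lie on chromosome 6 in the cluster of Slco1 genes, with 2 further protein-coding genes, Slco1b2 and Gm5724, between them in the RefSeq annotation of assembly GRCm38.p6, neither of them measured here. The differences of these transporter genes of 1 cluster had opposite signs, and neither passed the adjusted threshold. Their promoter windows are printed, from 250 bases before to 50 after the start of the gene, 5′ to 3′ on the gene's strand. The window of Slco1c1 is chr6:141524104-141524403 (plus strand) and that of Slco1a4 is chr6:141856171-141856470 (minus strand). Capitals mark matches, on both strands, to letters bound by factor families in the gene list: CCGGAA or AGGAAG for ETS factors such as Ets1 and Erg, AACAAT for SOX factors, CACACCC for KLF factors and TAAACA for forkhead factors.
Slco1c1: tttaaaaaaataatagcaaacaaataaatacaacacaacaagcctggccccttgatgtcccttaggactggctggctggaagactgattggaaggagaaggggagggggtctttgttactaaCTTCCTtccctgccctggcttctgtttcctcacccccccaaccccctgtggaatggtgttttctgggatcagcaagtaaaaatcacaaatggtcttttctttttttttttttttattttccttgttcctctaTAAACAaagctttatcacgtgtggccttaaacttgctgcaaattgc
Slco1a4: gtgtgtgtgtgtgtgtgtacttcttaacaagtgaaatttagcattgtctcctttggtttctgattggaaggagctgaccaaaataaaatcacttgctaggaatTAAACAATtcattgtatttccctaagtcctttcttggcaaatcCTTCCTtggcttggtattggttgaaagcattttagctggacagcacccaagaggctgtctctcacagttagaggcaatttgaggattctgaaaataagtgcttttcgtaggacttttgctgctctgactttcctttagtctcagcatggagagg
Each window held 1 ETS and 1 forkhead match, and Slco1a4 also had 1 SOX match that overlaps its forkhead match. Of 32851 windows of 300 bases, 45.2% held an ETS match, 13.4% a forkhead match, 10.7% a SOX match and 7.95% a KLF match. Of the 32 windows of the endothelial and barrier genes, which cover 23 of the 37 genes, 19 held an ETS, 8 a forkhead, 3 a SOX and 3 a KLF match. These are letter matches, not measured sites.

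The tight-junction genes had differences of different sign. Ocln encodes occludin, and its dim probe read 4.42 to 5.41 in knockout tumours (median 4.997) and 5.13 to 5.84 in intact tumours (median 5.46). Knockout replicates 1, 2, 3 and 4 lay below every intact tumour, and the other two overlapped them. The difference was -0.60 (SE 0.19, adjusted p = 0.254), with detection on 4 knockout and 6 intact arrays. It was -0.40 within the first 6 columns, -1.11 within the last 6 and -0.29 within series A, below 0 in all 24 alternatives, and it shrank to -0.15 without background correction.

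Cldn5 encodes the main claudin of brain endothelium. It read 11.4 to 12.2 in knockout (median 11.7) and 10.9 to 12.1 in intact tumours (median 11.5), 0.25 apart (SE 0.20, adjusted p = 0.652), and the groups overlapped. Tjp1, the gene of ZO-1, read 7.36 to 7.65 in knockout (median 7.49) and 6.84 to 7.84 in intact tumours (median 7.39), a difference of 0.17 (SE 0.17, adjusted p = 0.723). For both the difference was within the spread of the intact animals. The Cldn5 difference was -0.24 within series A, and that of Tjp1 was -0.31 within the first 6 columns.

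Mfsd2a encodes a lipid transporter that restrains vesicle uptake in brain endothelium. Its values were 11.64, 11.84, 11.98, 11.54, 11.48 and 11.42 in knockout replicates 1 to 6, against 11.22, 10.98, 12.68, 12.44, 12.24 and 10.84 in intact replicates 1 to 6. The means hardly differed, at 11.65 ± 0.22 and 11.73 ± 0.81 (SD, n = 6 knockout and 6 intact), a difference of -0.08 (SE 0.31, adjusted p = 0.937). The intact tumours lay on either side of the knockout ones: intact replicates 3, 4 and 5 lay above every knockout tumour and intact replicates 1, 2 and 6 below every one. A difference in spread was not tested. The efflux pump genes Abcb1a and Abcg2, which return drugs to the blood, were detected on 0 of 12 arrays by their 1 probe each and have no difference here.

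**Figure D2:**
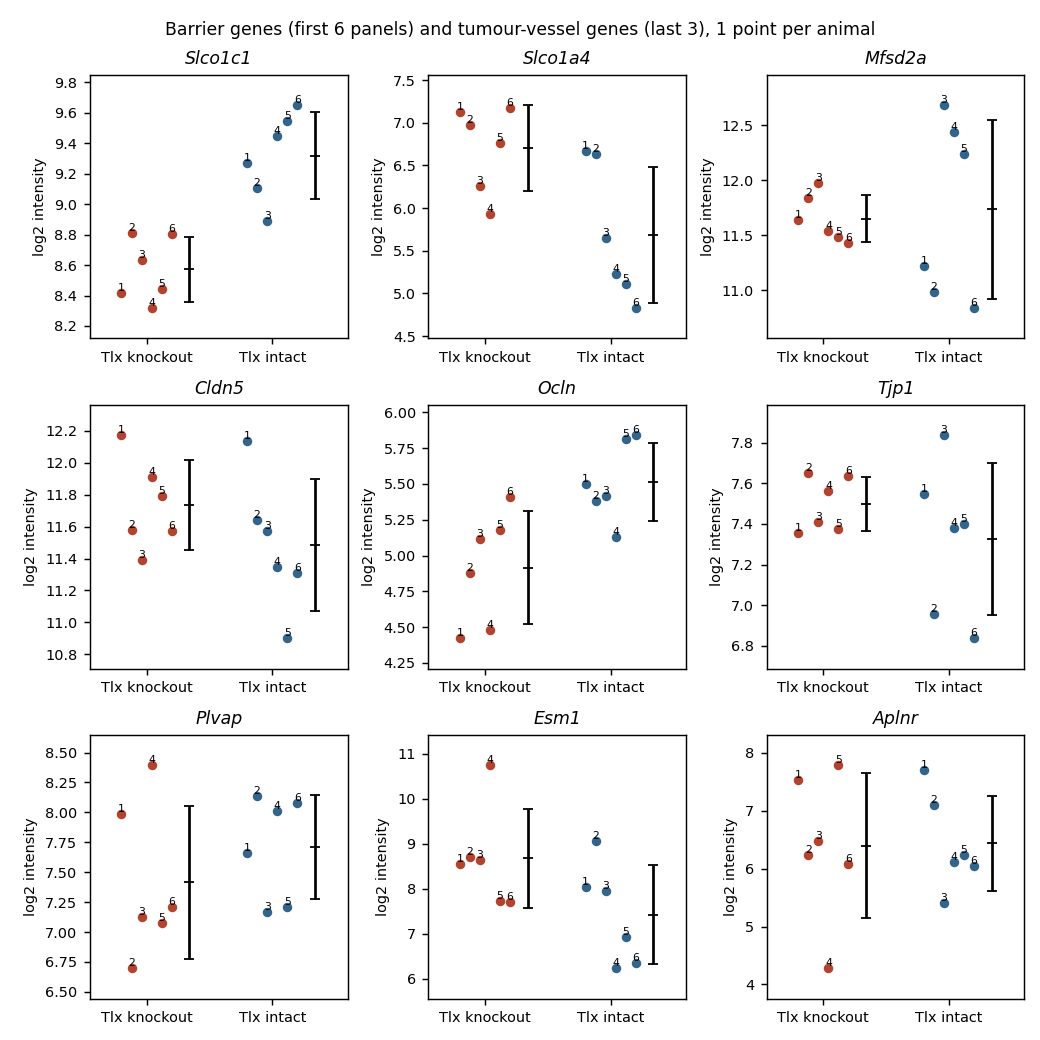
Log2 intensity of the 6 measured barrier genes and the 3 measured tumour-vessel genes, 1 point per animal with its replicate number, knockout left of intact, with mean and SD as bars beside the points. The y axes differ and do not start at 0. Slco1c1 is the gene whose groups do not overlap (knockout up to 8.81, intact from 8.89), and Esm1 and Aplnr have knockout replicate 4 at opposite ends.

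The barrier-associated genes outside the rule's barrier list had small differences. Tfrc, the transferrin receptor through which iron enters the brain, read 9.29 to 9.92 in knockout (median 9.65) and 9.59 to 10.2 in intact tumours (median 9.82), a difference of -0.23 (SE 0.15, adjusted p = 0.587), and its second probe was at -0.29. Itm2a, a membrane protein gene enriched in brain endothelium, was at 0.08 (SE 0.28, adjusted p = 0.929), with 9.21 to 10.9 in knockout (median 10.3) and 9.51 to 10.6 in intact tumours (median 10.3). Slc16a1, the monocarboxylate transporter gene, was detected on 0 of 12 arrays. Tfrc is also abundant in erythroid precursors, and of 9 erythroid markers 5 were measured, 1 of them above 0, with sums of 2890 to 50270 units in knockout and 2816 to 61503 in intact tumours. The part of these cells was not tested.

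Among tumour-vessel genes, 3 of 4 were measured. Esm1, which marks the tip cells of vessel sprouts, read 8.54, 8.70, 8.63, 10.7, 7.72 and 7.72 in knockout replicates 1 to 6, against 8.03, 9.05, 7.95, 6.24, 6.93 and 6.36 in intact replicates 1 to 6. Intact replicates 4, 5 and 6 lay below every knockout tumour, and knockout replicate 4 lay above every other tumour. The means were 8.67 ± 1.11 in knockout and 7.43 ± 1.103 in intact ones (n = 6 and 6, ± SD), a difference of 1.25 (SE 0.55, adjusted p = 0.400) or 2.38-fold. Without knockout replicate 4 it was 0.83, and with age as a covariate 2.08 (SE 0.84, adjusted p = 0.826). Within series A it had the opposite sign, -0.50 (SE 0.61, adjusted p = 0.999), while it was 0.76 within the first 6 columns and 1.22 within the last 6.

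Plvap read 6.70 to 8.39 in knockout tumours (median 7.17) and 7.17 to 8.13 in intact tumours (median 7.84), a difference of -0.29 (SE 0.29, adjusted p = 0.718) within overlapping groups. Within series A it was -0.90 (SE 0.39, adjusted p = 0.999), where knockout replicates 2, 5 and 6 read 6.70, 7.08 and 7.21 and intact replicates 1 and 2 read 7.66 and 8.13. With the column order as a block it was 0.15 (SE 0.35, adjusted p = 0.974). Aplnr, the apelin receptor gene, had almost the same means, 6.40 ± 1.25 in knockout and 6.43 ± 0.82 in intact ones (n = 6 and 6, ± SD), a difference of -0.04 (SE 0.53, adjusted p = 0.986). It read 7.53, 6.24, 6.48, 4.28, 7.78 and 6.09 in knockout replicates 1 to 6, against 7.70, 7.10, 5.41, 6.12, 6.24 and 6.04 in intact replicates 1 to 6. The lowest value was in knockout replicate 4, where the probe was not detected. Apln, the gene of its ligand, was detected on 1 of 12 arrays and was not tested.

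Whether the tumour-vessel genes vary together was not tested. All 3 lay above their own means in knockout replicate 1 and intact replicate 2, and all 3 below in knockout replicate 6 and intact replicates 3 and 5. Knockout replicate 4 had the highest Esm1 and Plvap values of the 12 tumours and the lowest Aplnr value. The list mean of the 3 genes was 0.15 ± 0.37 in knockout and -0.15 ± 0.59 in intact ones (n = 6 and 6, ± SD). Among intact tumours it was 0.45 and 0.75 in replicates 1 and 2, which belong to series A, and between -0.56 and -0.50 in the other 4.

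Set beside each other in the same array, barrier genes minus tumour-vessel genes gave a list-mean difference of -0.67, 0.25, -0.12, -0.68, -0.19 and 0.50 in knockout replicates 1 to 6, against -0.24, -0.81, 0.66, 0.54, 0.54 and 0.22 in intact replicates 1 to 6. The groups overlapped from end to end. The knockout mean was -0.15 ± 0.47 and the intact mean 0.15 ± 0.58 (SD, n = 6 each), a difference of -0.30 (SE 0.30). It was -0.71 (SE 0.38) with the column order as a block and 0.71 (SE 0.28) with the number series, so its sign depended on which arrays were compared. The barrier list mean ranged only from -0.29 to 0.21 over the 12 tumours, against -0.56 to 0.75 for the tumour-vessel list. The first averages 6 genes and the second 3. Between knockout and intact tumours the barrier list means differed by 0.0017 and the tumour-vessel list means by 0.31. Of the 3 tumour-vessel genes Esm1 lay above 0 (1.25), while Plvap (-0.29) and Aplnr (-0.04) lay below.

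**Figure D3:**
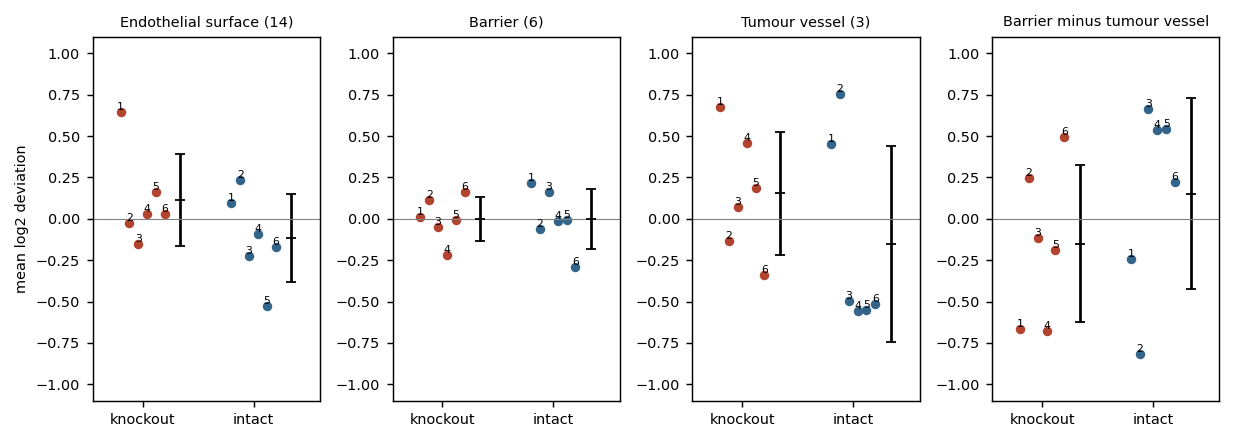
Mean log2 deviation of the 14 endothelial surface genes, the 6 barrier genes and the 3 tumour-vessel genes in each animal, and barrier minus tumour vessel, with knockout left of intact, replicate numbers on the points and mean and SD as bars. Intact replicates 1 and 2 stand at 0.45 and 0.75 for tumour-vessel genes, apart from the other 4 intact tumours near -0.5.

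Endothelial surface, secreted and signalling genes leaned higher in knockout tumours without any passing the threshold. Of 15, 14 were measured, 10 above and 4 below 0, with a median difference of 0.20, and 3 had an unadjusted p below 0.05. The list mean was 0.11 ± 0.28 in knockout and -0.11 ± 0.27 in intact ones (n = 6 and 6, ± SD), a difference of 0.23 (SE 0.16). Within series A the median turned to -0.06, and with the column order as a block it was 0.38. Markers of neurons and oligodendrocytes leaned lower in knockout tumours beside this list, again without any passing the adjusted threshold. Neuron markers (8 of 9 measured) lay below 0 in 8 of 8, with a median of -1.25, 3 of them at an unadjusted p below 0.05, and sums of 2231 to 15730 units in knockout and 3516 to 28090 in intact tumours. Oligodendrocyte markers (6 of 7 measured) lay below 0 in 6 of 6, with a median of -0.55 and 0 of them at an unadjusted p below 0.05. Their sums were 8187 to 38996 units in knockout and 16208 to 46875 in intact tumours. The part of neurons and oligodendrocytes in the values of the endothelial genes was not tested.

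Eng, the co-receptor endoglin for TGF-beta ligands on endothelium, came first. It read 7.35 to 8.32 in knockout tumours (median 7.56) and 6.43 to 7.42 in intact tumours (median 6.95), so the ranges met only at their edges. Knockout replicate 1 was the highest and intact replicate 5 the lowest. The difference was 0.73 (SE 0.21, adjusted p = 0.214) or 1.66-fold, and it was above 0 in all 24 alternatives, from 0.28 within series A to 0.93 with the column order as a block. Endoglin is also made by macrophages and mural cells, and of 9 myeloid markers 6 were measured, 5 above 0 (median 0.32), with sums of 1798 to 3504 units in knockout and 1464 to 4275 in intact tumours. Their part in the Eng difference was not tested.

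Tie1, an endothelial receptor tyrosine kinase of the angiopoietin system, read 5.82 to 6.92 in knockout (median 6.06) and 5.31 to 6.16 in intact tumours (median 5.61), a difference of 0.48 (SE 0.20, adjusted p = 0.370). Emcn, a sialoglycoprotein of capillaries and veins, read 9.05 to 10.03 in knockout (median 9.44) and 8.48 to 9.36 in intact tumours (median 9.25), also 0.48 (SE 0.22, adjusted p = 0.409). Cdh5, the cadherin of endothelial junctions, read 5.88 to 7.10 in knockout (median 6.33) and 5.37 to 6.86 in intact tumours (median 6.06), a difference of 0.45 (SE 0.29, adjusted p = 0.568). In all 3 genes the groups overlapped. Within series A these differences were 0.16, 0.07 and -0.13.

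The remaining surface genes lay closer to 0. Vwf, the clotting factor carrier, was at 0.43 (SE 0.31), Pecam1, the junction protein CD31, at 0.28 (SE 0.19), and Nos3, the endothelial nitric oxide synthase, at 0.21 (SE 0.21). Ptprb, a phosphatase that restrains Tie2, was at 0.20, the guidance receptor gene Robo4 at 0.18 and Ramp2, a subunit of the adrenomedullin receptor, at 0.11. Esam (-0.06) and Icam2 (-0.08), both of endothelial adhesion, Ly6c1 (-0.07), a surface protein of brain capillaries, and the secreted Egfl7 (-0.16) lay below 0. Their adjusted p ran from 0.598 to 0.947. One Nos3 probe had the opposite sign, at -0.08. A second Pecam1 probe, detected on 4 knockout and 0 intact arrays, had a fitted difference of 0.61, and its remaining probe was at 0.02. Clec14a was detected on 0 of 12 arrays.

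Printed next are the promoter windows of the surface gene and the tumour-vessel gene with the widest positive differences in their groups, with capitals as above. Eng has its window at chr2:32646345-32646644 and Esm1 at chr13:113209409-113209708, both on the plus strand of GRCm38.p6.
Eng: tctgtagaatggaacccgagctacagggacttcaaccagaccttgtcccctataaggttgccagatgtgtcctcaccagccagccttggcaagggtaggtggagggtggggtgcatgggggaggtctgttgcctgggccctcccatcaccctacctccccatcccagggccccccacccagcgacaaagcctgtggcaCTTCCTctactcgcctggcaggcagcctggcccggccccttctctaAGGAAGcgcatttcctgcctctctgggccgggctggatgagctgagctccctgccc
Esm1: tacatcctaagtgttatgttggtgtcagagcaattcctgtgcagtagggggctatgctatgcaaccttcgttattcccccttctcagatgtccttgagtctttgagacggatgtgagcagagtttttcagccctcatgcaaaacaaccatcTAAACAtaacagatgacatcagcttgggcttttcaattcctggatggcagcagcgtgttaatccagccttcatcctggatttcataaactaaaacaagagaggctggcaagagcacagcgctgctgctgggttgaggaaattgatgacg
Eng held 2 ETS matches and none of the other letters. Esm1 held 1 forkhead match and no ETS match in this window.

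Endothelial transcription factors were likewise not called. Of 7, 6 were measured, 5 above and 1 below 0, with a median of 0.19. Ets1, an ETS factor of endothelium and lymphocytes, read 10.2 to 11.2 in knockout (median 10.7) and 9.44 to 10.6 in intact tumours (median 10.3), a difference of 0.48 (SE 0.23, adjusted p = 0.442). Its other detected probes gave -0.47, -0.29 and 0.07, and the mean of its probes was at -0.05. The probes at -0.47 and -0.29 were detected on 4 and 3 intact arrays and on 0 knockout arrays. They passed the filter through the intact arrays alone, so their sign adds no support. The probe at 0.07 was detected on 2 knockout arrays and 1 intact array, where the first was detected on 12. Of 10 lymphocyte markers 4 were measured, 1 above 0, with sums of 93.3 to 161 units in knockout and 108 to 281 in intact tumours, and the T cell genes Cd3d and Cd8a were detected on at most 1 array. The part of lymphocytes in the Ets1 value was not tested.

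Sox17, a SOX factor of arterial endothelium, was the factor below 0. It read 5.14 to 6.07 in knockout (median 5.75) and 5.58 to 6.55 in intact tumours (median 6.02), a difference of -0.34 (SE 0.19, adjusted p = 0.504), whereas its second probe was at 0.07. With the column order as a block it was -0.01, and within series A -0.62. Its relative Sox18 read 6.59 to 8.11 in knockout (median 7.13) and 6.30 to 7.65 in intact tumours (median 6.89), at 0.20 (SE 0.28, adjusted p = 0.805), with -0.46 within series A.

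Klf2, which responds to blood flow in endothelium, read 6.88 to 7.95 in knockout (median 7.29) and 6.08 to 7.33 in intact tumours (median 7.02), a difference of 0.36 (SE 0.23, adjusted p = 0.568). The related Klf4 was at 0.08 (SE 0.17, adjusted p = 0.882), near the detection limit and detected on 6 knockout and 4 intact arrays. Foxq1, a forkhead factor of brain endothelium, read 7.20 to 8.21 in knockout (median 7.70) and 6.83 to 7.997 in intact tumours (median 7.51), at 0.17 (SE 0.23, adjusted p = 0.811). Erg, an ETS factor that maintains endothelial identity, was detected on 2 of 12 arrays by 1 probe and 0 by the other, and was not tested.

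**Figure D4:**
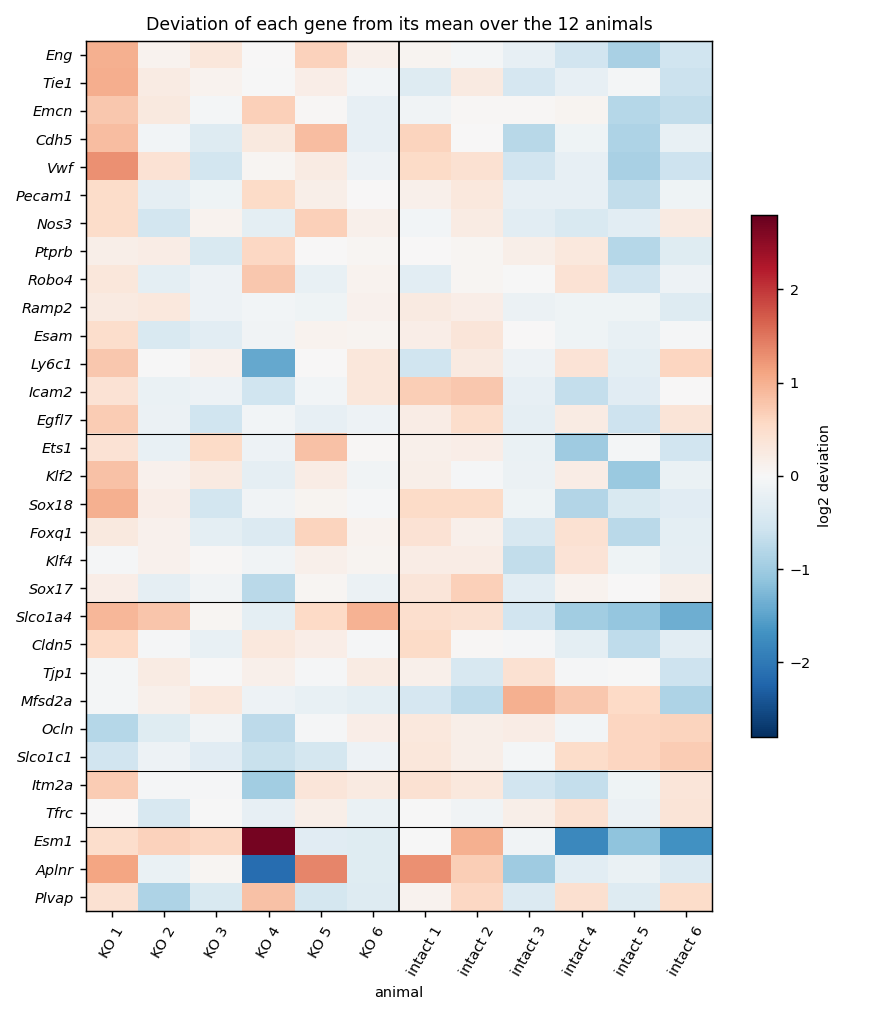
Log2 deviation of each of the 31 genes (rows, by gene group) from its mean over the 12 animals (columns, knockout left of the line and intact right of it), red above and blue below that mean. Knockout replicate 1 is above the mean for all 14 surface genes, and knockout replicate 4 combines the highest Esm1 with the lowest Aplnr and Ly6c1 values.

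For the surface list the spread between animals (SD 0.28 in knockout and 0.27 in intact tumours) was wider than the difference of the group means, 0.23. Knockout replicate 1 had the highest surface list mean, 0.64, and intact replicate 5 the lowest, -0.53, with the other 10 tumours between -0.22 and 0.24. Knockout replicate 1 had the highest Vwf (10.6), Eng (8.32), Tie1 (6.92) and Sox18 (8.11) values. Knockout replicate 4 had the highest Robo4 (9.70) and Ptprb (8.60) values but the lowest Ly6c1 (7.70), Itm2a (9.21) and Sox17 (5.14) values. Neuron and astrocyte list means were lowest in that tumour as well, at -1.61 and -1.55. Over the 12 arrays the SD of single genes ran from 0.21 for Ramp2 to 1.24 for Esm1.

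Of the 31 genes, 11 kept their sign in all 24 alternatives: Eng, Tie1, Emcn, Ptprb, Klf2, Foxq1 and Slco1a4 above 0, and Slco1c1, Ocln, Sox17 and Tfrc below 0. The alternatives reuse the same arrays, so an unchanged sign is no independent support. Some kept signs were barely off 0. Foxq1 was at 0.0065 (SE 0.34) and Klf2 at 0.014 (SE 0.38) with the number series as a block. Sox17 was at -0.0066 (SE 0.22) with the column order as a block. The number series moved more genes across 0 than the other settings. That fit compares 3 knockout with 2 intact animals of series A. In it Pecam1 was at -0.24 (SE 0.27), Vwf at -0.33 (SE 0.43), Icam2 at -0.71 (SE 0.31) and Egfl7 at -0.53 (SE 0.37), all with adjusted p = 0.999.

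**Figure D5:**
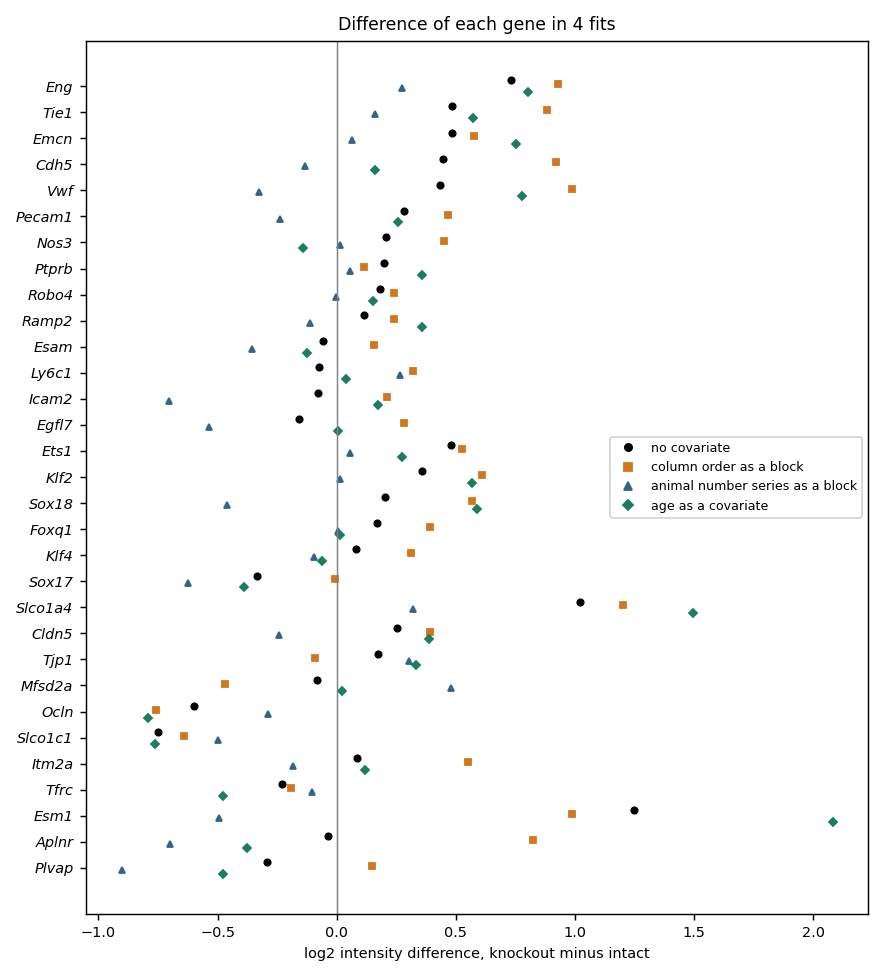
Log2 difference, knockout minus intact, of each of the 31 genes in the fit without a covariate, with the column order of the table as a block, with the animal number series as a block and with age as a covariate. Slco1c1 stays between -0.76 and -0.50 in the 4 fits, while Esm1 runs from -0.50 to 2.08.

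Other genes of the same vessels, taken from lists, gave few values past an unadjusted p of 0.05 and no call after adjustment. These lists do not hold every gene that endothelium expresses, and Adgrf5, which was called over all genes, is in none of them. Of 25 further endothelial genes 20 were measured, 1 higher and 1 lower at that p (median 0.05): Mcam, an adhesion molecule of endothelium and mural cells, was at 0.60 (SE 0.25) and Tal1, a factor of blood and endothelium detected on 2 knockout and 5 intact arrays, at -0.67 (SE 0.29), followed by Bcl6b (0.39) and Nostrin (0.37). Of 37 further barrier genes 31 were measured, with 0 higher and 1 lower (median -0.02). That was the anion transporter gene Slc22a8 (-0.52, SE 0.21), detected on 2 knockout and 5 intact arrays. The junction adhesion gene F11r was at 0.9996 (SE 0.48) and Ttyh2 at -0.60 (SE 0.29). Cgn, the gene of cingulin, was detected on 4 knockout and 0 intact arrays and so entered the test through the knockout arrays alone. Its mean was at least 1.08-fold higher in knockout tumours (limma adjusted p = 0.503).

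Further genes of sprouting and tumour vessels and their basement membrane leaned higher in knockout tumours. All 21 were measured, with a median of 0.25 and 16 above 0, where 49.6% of all genes tested lay above 0. At an unadjusted limma p below 0.05, 3 were higher and 0 lower, against 6.22% and 5.72% of all genes. Besides Mcam, the higher ones were Cxcr4 (0.66, SE 0.31), a chemokine receptor of tip cells and leukocytes, and the Notch ligand gene Dll4. Mcam is also counted among the further endothelial genes above. Dll4 was detected on 3 knockout and 0 intact arrays, with a mean at least 1.099-fold higher in knockout tumours (limma adjusted p = 0.292). It entered the test through the knockout arrays alone, so its place in this count adds no support. Nid2, of the basement membrane, was at 0.59 (SE 0.28). Activated or venous endothelial genes (7 of 8 measured, median -0.01) and arterial genes (8 of 9 measured, median -0.01) had medians near that of all genes tested. The activated-endothelium genes Vcam1 and Lcn2 were at -0.20 and 0.58. The arterial gene Gkn3, detected on 3 knockout and 4 intact arrays, was at -0.61 (SE 0.24) and was the one among these past an unadjusted p of 0.05.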

How the data were processed

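RNA of 12 gliomas was hybridised to Illumina bead arrays. The authors deposited, per the file headers, linear signal intensities of 45135 probes per array, each with a detection p-value, not normalized between arrays, and a second table of 45134 processed intensities by a normalization not given in the sources used here. Its column medians were 145 to 150.2. They are uncentred single-colour values without a direction. The sources do not state how the authors obtained the detection p-values.

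Probes were named from the platform annotation, with symbols updated through Entrez identifiers (GRCm38.p6 table, 34694 of 34772 probes with 1 symbol; 18 had several and 10345 none). The neqc function of limma 3.58.1 (R 4.3.3) processed the signals (offset 16, quantile normalization, log2). Probes detected at p below 0.05 on at least 3 arrays were kept, 28002 in all and 23118 with 1 gene. The brightest kept probe stood for each of 14155 genes, 5779 of which had several.

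Groups were compared with limma (lmFit, eBayes, two-sided, Benjamini-Hochberg over all 14155 genes). SE is limma's for genes and that of the difference of means for list means. Where 1 group had no detection, a fold is a bound against the lowest detected value per array. The fit was tested on simulated arrays of 14155 genes, where it called 7.46% of genes changed by 0.5 log2 units, 52.2% at 1 and 89.4% at 2. It also called 2 unchanged genes. The simulated noise was drawn for each gene separately, without blocks or age, so these shares do not cover such structure in the real arrays. Animals are separate, and the number of arrays limits the precision. Members and lists were chosen with earlier results of these data known. By rule, every measured member is named, with values for all barrier and tumour-vessel genes and for the 4 of smallest p in the other member groups, other probes where they differ in sign or by over 0.5, up to 4 genes of smallest p per further endothelial list, up to 3 of highest intensity per other cell type, and Nr2e1. Lyzl4 and Adgrf5 are named outside this rule, as the genes called over all genes tested. Not every gene of the further lists is reported. The alternatives were another background correction, normalization, filter, probe rule, the authors' table, array weights, the blocks, age and leaving out each array.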

Additional observations from a re-analysis of the deposited data

Results flagged for a closer look

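In 4 of 62 groups of 6 values (31 genes, 2 groups each) 1 tumour stood apart by Dixon's criterion, and chance flags about 1 in 20. Tie1 was at 6.923 in knockout replicate 1, against 6.131 in the next tumour. Ly6c1 was at 7.701 in knockout replicate 4, against 9.124 in the next. Esm1 was at 10.74 in knockout replicate 4, against 8.697 in the next. Klf2 was at 6.077 in intact replicate 5, against 6.926 in the next. Without the tumour that stood apart, the differences were 0.33 for Tie1, 0.20 for Ly6c1, 0.83 for Esm1 and 0.18 for Klf2.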

How the results depend on the processing

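No gene of the 31 was called under any of the 24 alternatives. No paired analysis was possible because the labels give the groups no shared replicate numbers. Over all genes, 2 passed the threshold, and 1 passed without background correction, with median scaling, in the authors' table, with probes averaged per gene, with array weights, with either block and with age. Leaving out 1 array gave 1 to 103 genes, the highest without intact replicate 1. The barrier median of 0.04 became -0.28 with the column block, and -0.095 (without intact replicate 6) to 0.19 (without intact replicate 3) when 1 array was left out. The tumour-vessel median of -0.04 became 0.82 with the column block and -0.70 with the series block, and -0.26 (without knockout replicate 1) to 0.39 (without knockout replicate 4) when 1 array was left out. Barrier minus tumour vessel, -0.30, became 0.71 with the series block, -0.0034 with array weights and -0.50 to -0.20 without 1 array. Signs turned as follows. Aplnr was at 0.022 without background correction and in the authors' table, and Ly6c1 at 0.084 and Mfsd2a at 0.071 with array weights. Ets1 was at -0.052 with the mean of its probes, which takes in probes detected on intact arrays alone. With the column block Esam was at 0.16, Icam2 at 0.21, Egfl7 at 0.28, Ly6c1 at 0.32, Tjp1 at -0.089, Plvap at 0.15 and Aplnr at 0.82. With the series block Pecam1 was at -0.24, Cdh5 at -0.13, Robo4 at -0.0040, Ramp2 at -0.11, Vwf at -0.33, Ly6c1 at 0.27, Sox18 at -0.46, Klf4 at -0.096, Mfsd2a at 0.48, Cldn5 at -0.24, Itm2a at -0.18 and Esm1 at -0.50. With age Icam2 was at 0.17, Egfl7 at 0.0063, Nos3 at -0.14, Ly6c1 at 0.037, Klf4 at -0.060 and Mfsd2a at 0.020. Without 1 array Esam ran from -0.16 to 0.024, Icam2 from -0.22 to 0.068, Ly6c1 from -0.23 to 0.20, Klf4 from -0.049 to 0.17, Mfsd2a from -0.26 to 0.11, Itm2a from -0.050 to 0.29 and Aplnr from -0.31 to 0.39. The cause was not tested. Dim probes such as those of Ocln and Klf4 lie near background, which limits their folds.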

Other observations

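Mural cells, which share the vessel wall with endothelium, had genes on both sides. Of 13 pericyte and smooth muscle markers 12 were measured, 6 above and 6 below 0, with a median of -0.02 and sums of 4452 to 10052 units in knockout and 2892 to 8528 in intact tumours. By the rule of highest intensity, Acta2, the smooth muscle actin gene, was at 0.94 (SE 0.49), the proteoglycan gene Cspg4, also of glial progenitors, at 0.71 (SE 0.28) and Vtn at -0.44. Kcnj8, a potassium channel gene of brain pericytes that was picked after its values were seen, read 5.20 to 6.53 in knockout and 6.56 to 7.24 in intact tumours, without overlap, a difference of -0.78 (SE 0.22, limma adjusted p = 0.212). It was the 1 of the 12 mural markers separated in this direction, and 0.219% of all genes tested were. Rgs5, a pericyte regulator of G-protein signalling picked in the same way, read 4.44 to 7.21 in knockout and 6.93 to 7.66 in intact tumours, a difference of -1.56 (SE 0.37, limma adjusted p = 0.202).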
